A study of Rattus norvegicus with 35 samples.

Results

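Ribosomes are built in the nucleolus, where RNA polymerase I transcribes the genes of ribosomal RNA and a large set of assembly factors cuts, modifies and folds the transcript into the small (40S) and large (60S) subunits. Box C/D small nucleolar ribonucleoproteins guide the methylation of ribosomal RNA, and box H/ACA particles guide its conversion to pseudouridine. A heart that enlarges under pressure load makes more protein per muscle cell, and ribosome production in overloaded muscle has long been studied as a part of that growth. The set described here is defined by gene symbol, as the genes whose symbol begins with Nop, Utp or Rrp and a digit or with Polr1, plus a list of named nucleolar factors such as Ncl, Fbl and Bop1. It came to 42 genes, measured by 43 probes, of the 13337 genes with a symbol on the array. Npm3, Dkc1 and Bysl were in the rule but had no probe under those symbols.

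The samples were left ventricles of male Wistar rats whose abdominal aorta had been tied off, a pressure load model of cardiac hypertrophy, and of rats given a sham operation. The tissue was taken 1, 6 or 42 days after surgery. Each group held 6 arrays, apart from the 5 of the ligated rats at day 6, and ligated arrays were compared with the sham arrays of the same day. The RNA came from whole ventricle tissue, so that fewer cells of a type and less RNA per cell cannot be told apart. Levels are given as log2 of the background-corrected, normalised probe intensity, and differences as log2 fold changes of ligated over sham with their standard error (SE). A gene is said to have risen or fallen where its p-value from limma, adjusted over all probes tested on that day, was under 0.05.

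Each day lay on 1 BeadChip of its own. At days 1 and 42 ligated RNA was in the first 6 positions of the chip (A to F) and sham RNA in the last 6, and there the effects of operation and position cannot be told apart. Between 32.8% and 40.3% of probes were detected per array. Before scaling, the ligated arrays of day 42 were dimmer than their sham arrays, with a 75th percentile of intensity of 206.0 ± 36.9 (SD, n = 6) against 293 ± 30.5 (n = 6; exact two-sided permutation test, p = 0.00433). At day 1 the values were 254 ± 41.3 and 219.6 ± 19.4 (n = 6 each; exact permutation p = 0.104). The ligated arrays 1 and 2 of day 6 were the brightest of their day. Nppa, the atrial natriuretic peptide gene that is a classical mark of load on the ventricle, lay between 15.71 and 16.07 on the ligated arrays of day 6 and between 12.11 and 13.48 on the sham arrays. At days 1 and 42 its groups overlapped, with 12.95 to 15.61 after ligation and 12.76 to 14.03 after sham surgery at day 1, and 12.22 to 15.52 and 10.06 to 13.72 at day 42. None of the 7 ventricular cardiomyocyte markers tested passed the threshold on any day.

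At day 1, 14 of the 39 members tested rose and 3 fell, against 12.9% of all 6218 genes tested that rose and 16.2% that fell (29.1% in either direction). The genes that rose took in components of both kinds of ribosomal RNA modifying particle (Nhp2, Gar1, Nop58, Fbl), 2 RNA polymerase I subunits (Polr1d, Polr1f), and assembly factors of the small subunit (Utp20, Utp3, Utp11, Utp23) and of the large one (Bop1, Ebna1bp2, Nop16, Rrp15). The genes that fell were Polr1a, Ddx21 and Nop53. The fold change was above 0 for 34 of the 39 (87.2%), as it was for 46.1% of all genes, and the median was 0.30 against -0.03. At day 6, 6 of 40 members rose and none fell, against backgrounds of 5.95% and 5.81% (11.8% in either direction). The median was then 0.21 against -0.04 over all genes, and 12 members (30%) had an unadjusted p under 0.05, close to the 28.9% of all genes. At day 42, 1 of 40 rose and 1 fell, against 6.84% and 7.9% (14.7% in either direction), and the median was 0.01 against -0.01.

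**Figure D1:**
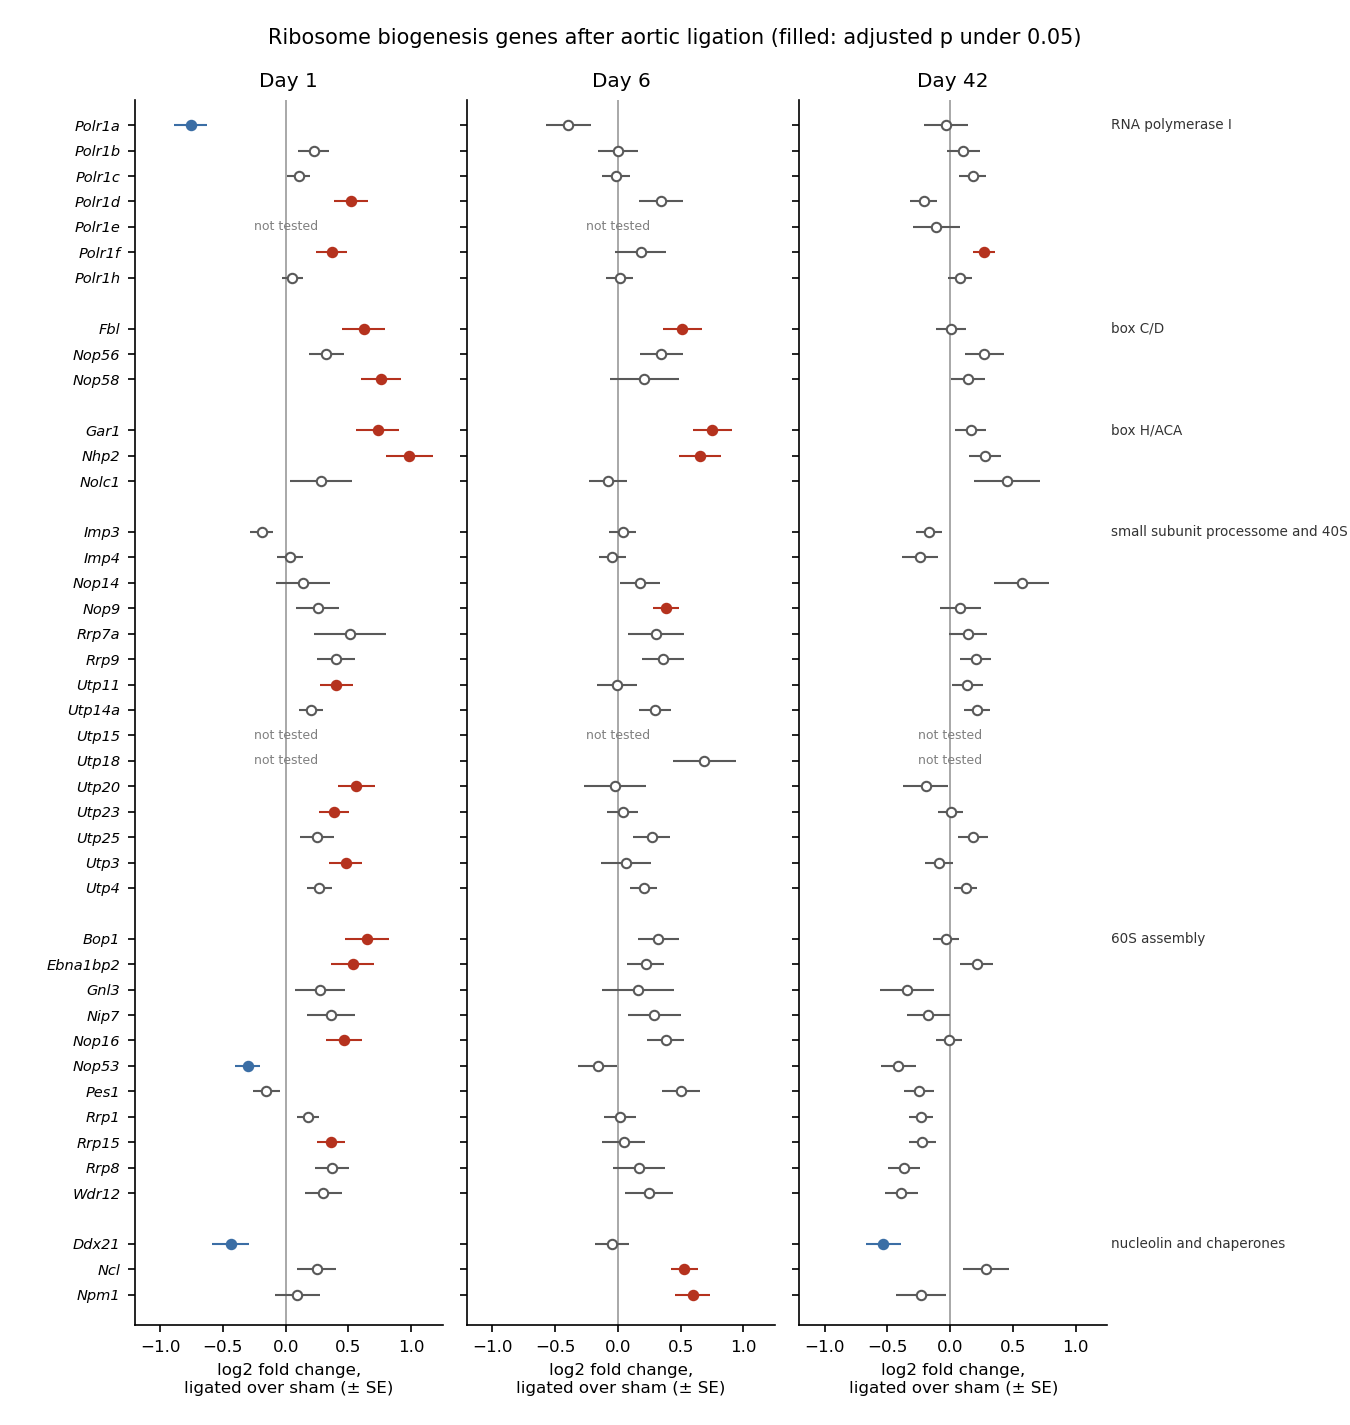
Log2 fold change of each member, ligated over sham, with its SE, in 3 panels for days 1, 6 and 42, with genes grouped by role. Filled points passed an adjusted p of 0.05 (red higher, blue lower) and open points did not. At day 1, 34 of 39 points lie above 0 and Polr1a is the lowest, while at day 42 the points lie on both sides of 0.

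**Figure D2:**
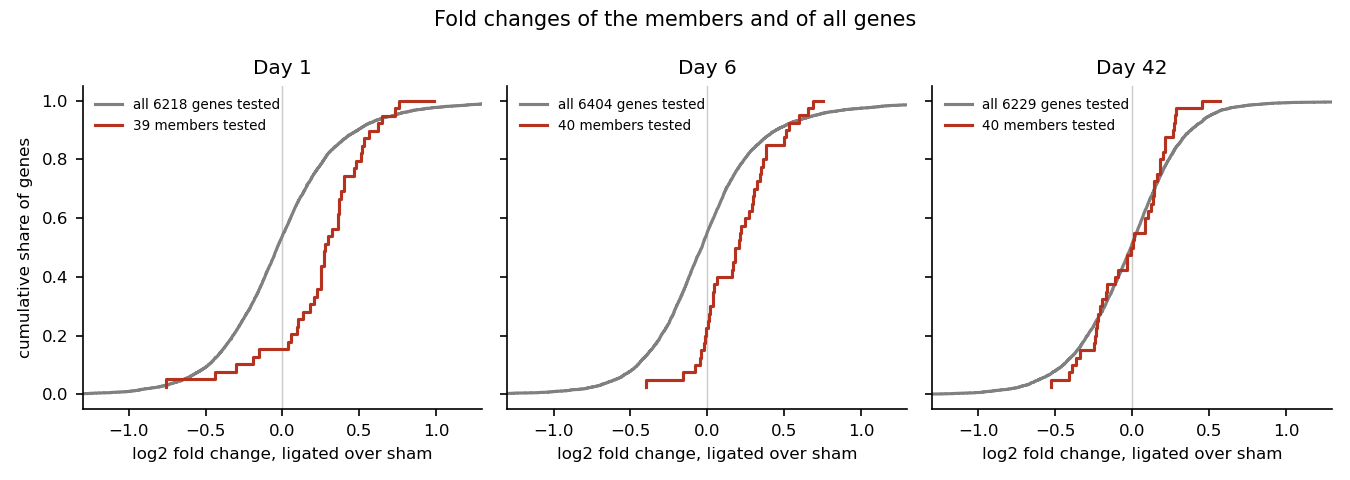
Cumulative share of genes by log2 fold change, ligated over sham, for the members tested (red) and for all genes tested (grey) on each day. The red curve lies to the right at days 1 and 6, with medians of 0.30 and 0.21, and follows the grey curve at day 42.

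The 3 members with the largest rises at day 1 all belong to small nucleolar ribonucleoproteins. Nhp2 encodes a core protein of the box H/ACA particle, also found in telomerase. Its level on the 6 ligated arrays had a lowest value of 10.73, a median of 11.85 and a highest of 12, and on the 6 sham arrays 10.46, 10.66 and 10.81. All ligated arrays but 1 lay above every sham array. The fold change was 0.99 ± 0.19 (1.98-fold; limma, adjusted p = 0.00278). Gar1, another core protein of that particle, ranged from 9.49 through a median of 10.19 to 10.4 after ligation and from 8.87 through 9.33 to 9.64 after sham surgery. Of its ligated arrays, 4 were above all sham arrays and the groups overlapped, with a difference of 0.73 ± 0.17 (1.66-fold, adjusted p = 0.00819). The third H/ACA associated member, Nolc1, which carries these particles in the nucleolus and the Cajal body, had a difference of 0.28 ± 0.25 (adjusted p = 0.414) and did not pass.

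Among the box C/D proteins, Nop58 had a lowest, median and highest level of 10.05, 10.47 and 10.96 on the ligated arrays and of 9.48, 9.74 and 9.94 on the sham arrays. The groups did not overlap, and Nop58 rose by 0.76 ± 0.16 (1.69-fold, adjusted p = 0.0049). Fbl encodes fibrillarin, the methyltransferase of the particle. It ran from 10.6 through 11.4 to 11.73 after ligation and from 10.52 through 10.61 to 10.7 after sham surgery. The ligated arrays were above all sham arrays in 5 of 6 cases, and the change was 0.62 ± 0.17 (1.54-fold, adjusted p = 0.0158). Nop56, the partner of Nop58 in the particle's core, had 0.32 ± 0.14 and did not pass (adjusted p = 0.0889).

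The promoters of the members that held their day 1 call in every refit that left out 1 array and in every processing alternative that tested them are printed here, to show whether short motifs known from growth gene promoters lie in them. They are Gar1, Nhp2, Nop58, Polr1a and Utp20. Each sequence runs from 250 bases before to 50 bases after the RefSeq gene start (build GRCr8), 5′ to 3′ on the gene's strand. Capitals mark CACGTG, the E-box bound by Myc and Max, which reads the same on both strands, and CCGGAA or its reverse complement TTCCGG, the core of many ETS factor sites. In Gar1 the 2 ETS matches overlap and form 1 run of capitals.
Gar1 (chr2:221056700-221056999, minus strand): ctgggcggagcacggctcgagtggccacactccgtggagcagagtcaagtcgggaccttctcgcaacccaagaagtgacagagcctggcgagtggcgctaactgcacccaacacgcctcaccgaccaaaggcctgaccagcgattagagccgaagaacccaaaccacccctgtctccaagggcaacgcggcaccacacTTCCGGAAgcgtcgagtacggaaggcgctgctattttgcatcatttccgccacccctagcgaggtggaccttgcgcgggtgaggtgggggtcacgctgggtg
Nhp2 (chr10:36377770-36378069, plus strand): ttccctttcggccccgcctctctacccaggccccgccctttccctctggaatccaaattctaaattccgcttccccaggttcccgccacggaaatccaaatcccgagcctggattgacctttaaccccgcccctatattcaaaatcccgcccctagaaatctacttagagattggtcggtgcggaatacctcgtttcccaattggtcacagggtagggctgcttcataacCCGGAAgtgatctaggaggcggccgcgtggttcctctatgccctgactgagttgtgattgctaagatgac
Nop58 (chr9:68614824-68615123, plus strand): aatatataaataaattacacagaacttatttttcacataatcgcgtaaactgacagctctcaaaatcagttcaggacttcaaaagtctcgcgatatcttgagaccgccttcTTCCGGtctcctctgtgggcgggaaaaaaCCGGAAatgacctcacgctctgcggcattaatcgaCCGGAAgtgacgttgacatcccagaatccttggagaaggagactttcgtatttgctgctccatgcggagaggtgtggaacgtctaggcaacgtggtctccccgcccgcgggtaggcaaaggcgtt
Polr1a (chr4:105508055-105508354, plus strand): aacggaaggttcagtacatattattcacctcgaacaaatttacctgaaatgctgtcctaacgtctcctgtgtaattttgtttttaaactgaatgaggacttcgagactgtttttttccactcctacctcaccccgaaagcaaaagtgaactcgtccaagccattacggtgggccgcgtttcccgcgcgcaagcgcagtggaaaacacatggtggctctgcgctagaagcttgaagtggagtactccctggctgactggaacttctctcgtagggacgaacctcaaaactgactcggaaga
Utp20 (chr7:25102800-25103099, minus strand): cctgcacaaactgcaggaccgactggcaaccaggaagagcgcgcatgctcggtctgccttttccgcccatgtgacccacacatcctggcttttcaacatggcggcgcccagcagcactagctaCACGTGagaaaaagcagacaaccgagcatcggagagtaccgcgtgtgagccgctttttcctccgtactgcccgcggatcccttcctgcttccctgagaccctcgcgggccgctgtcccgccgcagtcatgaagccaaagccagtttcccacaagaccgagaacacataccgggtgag
Gar1, Nhp2 and Nop58 hold the ETS core before the start, 3 times in Nop58. Utp20 has an E-box whose first base lies at position -127 from the start, and the Polr1a window holds neither motif. A RefSeq promoter was found for 40 of the 42 members (none for Utp23 or Bop1 in the table used). The E-box lay in 12 of the 40 (30%), against 7.81% of the 10976 genes on the array with a promoter and 6.42% of all 33469 promoters in the table. The ETS core lay in 22 of 40 (55%), against 20.7% and 15%. The median GC content was 59.2% for the members, 58% for the array's genes and 51.7% for all promoters. Among the 12 members that rose at day 1 and had a promoter, 4 held the E-box and 8 the ETS core. These are matches of letters in a short window and not measured binding.

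RNA polymerase I had 7 members, of which 6 could be tested at day 1, and they did not move one way. Polr1a encodes the largest subunit, which carries the catalytic site together with the product of Polr1b. Polr1a had a lowest, median and highest level of 7.12, 7.69 and 7.90 on the ligated arrays and of 8.19, 8.30 and 8.48 on the sham arrays. Every ligated array was below every sham array, as for 5.63% of all genes, and Polr1a fell by 0.76 (SE 0.13; 1.69-fold lower; adjusted p = 0.00179). Polr1b ran from 9.17 through 9.45 to 9.88 after ligation and from 9.05 through 9.30 to 9.5 after sham surgery, and at 0.22 ± 0.12 did not pass (adjusted p = 0.18). Polr1d encodes a subunit shared with RNA polymerase III. It rose by 0.52 ± 0.14 (1.43-fold, adjusted p = 0.0137), from a sham range of 9.96 to 10.4 to a ligated range of 10.35 to 11.04, with 5 of 6 ligated arrays above all sham arrays. Polr1c, its partner in both polymerases, lay between 11.11 and 11.46 after ligation and between 11.11 and 11.33 after sham surgery, with 0.10 ± 0.09 (adjusted p = 0.401). Polr1f, one of the smaller subunits, rose by 0.37 ± 0.12 (1.29-fold, adjusted p = 0.0404). Its ligated levels of 9.93 to 10.72, median 10.29, overlapped the sham levels of 9.84 to 9.99, median 9.94, in 1 array. The call for Polr1f held in 3 of 12 refits that left out 1 array, and with array brightness as a covariate the value was 0.18 (adjusted p = 0.232). Polr1h, also a small subunit, lay between 9.49 and 9.78 after ligation and between 9.52 and 9.70 after sham surgery, with 0.05 ± 0.08 (adjusted p = 0.652). Polr1e was detected on 2 ligated arrays and no sham array of day 1 and was not tested.

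**Figure D3:**
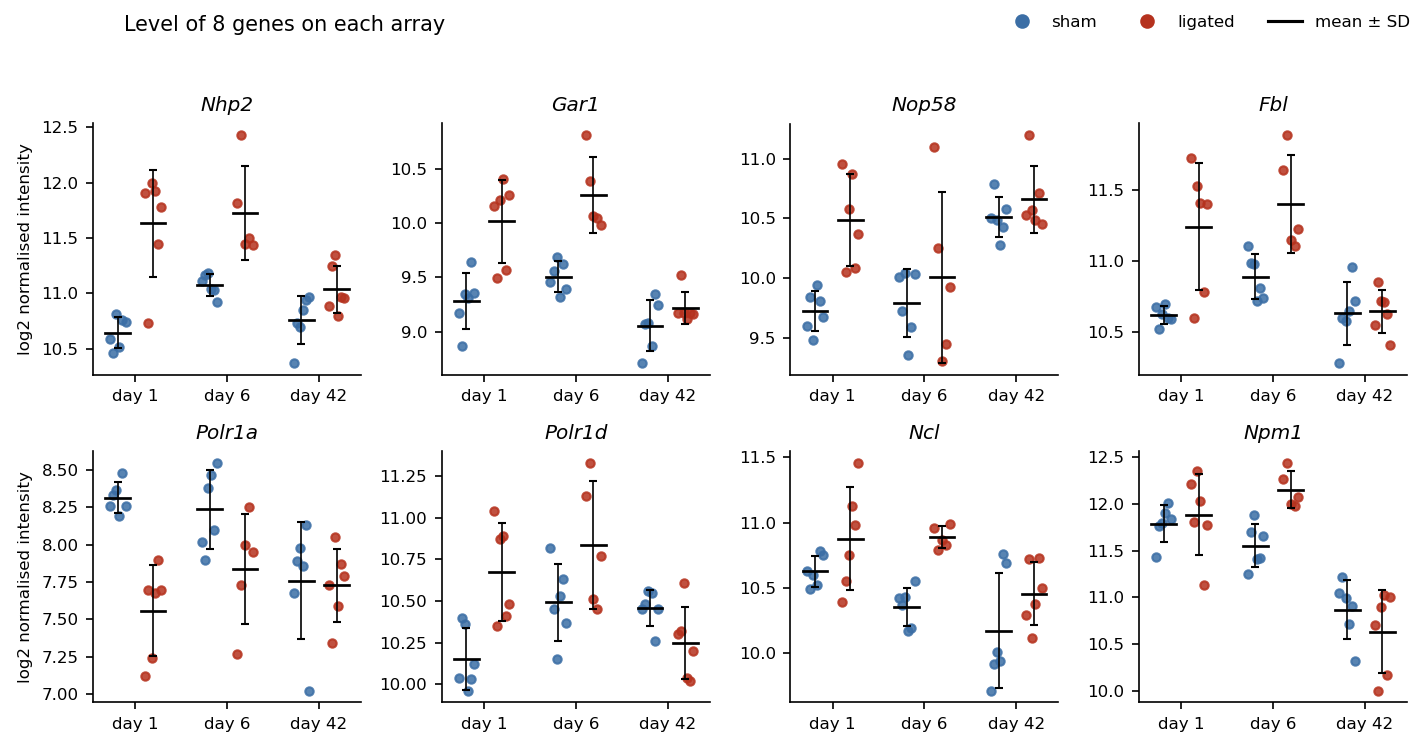
Level of 8 genes on every array, as log2 normalised intensity, with sham arrays in blue, ligated arrays in red and black bars for the mean ± SD. At day 1 the ligated and sham points of Nop58 and of Polr1a do not overlap, in opposite directions. Values are to be compared between operations within a day, since each day was normalised on its own.

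Of the 15 small subunit factors, 13 were tested at day 1 and 4 rose, with none falling. Their median was 0.27, and 12 of 13 were above 0. Utp20, a large scaffold protein of the small subunit processome, had a lowest, median and highest level of 6.10, 6.49 and 6.95 after ligation and 5.68, 6.06 and 6.20 after sham surgery. It was detected on all 6 ligated arrays but on 3 of 6 sham arrays, and its rise was 0.56 ± 0.15 (1.48-fold, adjusted p = 0.0132). Utp3, a further component of the processome, rose by 0.48 ± 0.13 (adjusted p = 0.0154), Utp11 by 0.40 ± 0.13 (adjusted p = 0.0342) and Utp23 by 0.38 ± 0.12 (adjusted p = 0.0295). The groups overlapped for Utp3 and Utp11 and not for Utp23. Rrp9, Imp3 and Imp4, which bind the U3 particle that starts this assembly, did not pass, with 0.40 ± 0.15 for Rrp9 (adjusted p = 0.0594), 0.03 ± 0.10 for Imp4 and -0.19 ± 0.09 for Imp3. Utp15 was detected on no array of day 1. Utp18 was detected on 4 of 6 ligated arrays and no sham array and was not tested either. Its ligated mean was 1.04-fold above the upper bound of the sham group. That mean takes in ligated arrays on which Utp18 was not detected, so 1.04 is not a lower limit. The other small subunit members tested (Rrp7a, Utp4, Nop9, Utp25, Utp14a and Nop14) did not pass, with values from 0.14 to 0.51.

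All 11 factors of 60S assembly were tested at day 1, of which 4 rose and 1 fell. Bop1 belongs with Pes1 and Wdr12 to the PeBoW complex, which is needed to process the precursor of the large subunit RNA. Bop1 had a lowest, median and highest level of 7.70, 8.55 and 8.82 after ligation and 7.42, 7.79 and 8.02 after sham surgery, and rose by 0.65 ± 0.18 (1.57-fold, adjusted p = 0.0165). Its partners did not pass, with 0.30 ± 0.15 for Wdr12 (adjusted p = 0.135) and -0.15 ± 0.11 for Pes1 (adjusted p = 0.296). Pes1 was near the limit of detection, on 5 of 6 arrays of either group. Ebna1bp2 rose by 0.53 ± 0.17, Nop16 by 0.46 ± 0.15 and Rrp15 by 0.36 ± 0.11, all 3 being nucleolar factors of the large subunit (adjusted p = 0.0337, 0.03 and 0.0287). For Rrp15 the groups did not overlap. Nop53, which guides the exosome to the large subunit precursor, fell by 0.30 (SE 0.10; adjusted p = 0.0338). Its sham levels ran from 10.54 through 10.67 to 10.93 and its ligated levels from 10.12 through 10.41 to 10.55, with 5 of 6 ligated arrays below all sham arrays. The call for Nop53 held in 5 of 12 refits that left out 1 array, and its value was -0.063 (adjusted p = 0.787) after scaling to the array median, where the median of all genes was 0.20. Nip7, Rrp8, Gnl3 and Rrp1 did not pass, with values from 0.18 to 0.37.

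Nucleolin and nucleophosmin, abundant nucleolar proteins that bind ribosomal RNA and act as chaperones, did not pass at day 1, with 0.25 ± 0.16 for Ncl (adjusted p = 0.246) and 0.09 ± 0.18 for Npm1 (adjusted p = 0.72). Ddx21, a nucleolar RNA helicase, fell by 0.44 (SE 0.15; adjusted p = 0.0408), from sham levels of 6.79, 7.25 and 7.57 as the lowest, median and highest to ligated levels of 6.49, 6.74 and 7.08. That call held in 4 of 12 refits that left out 1 array, and the value was -0.19 (adjusted p = 0.383) after scaling to the array median. In all, every ligated array was above every sham array for 3 members at day 1 (4.6% of all genes) and below for 1. The ligated arrays 2 and 5 of day 1 were the lowest in the set: the median over members of the level minus the sham mean was -0.02 and 0.11 on them, against 0.34 to 0.52 on the other ligated arrays and -0.07 to 0.09 on the sham arrays. With array brightness as a covariate, 4 members rose and 1 fell at day 1, and leaving out 1 array at a time gave 8 to 19 rises, with 8 without ligated array 4 or sham array 1 and 19 without ligated array 2 or 5. The calls of Nhp2, Gar1, Nop58 and Polr1a held in all 12 such refits and in all 11 processing alternatives. Those of Ebna1bp2, Utp11, Nop16, Utp23 and Rrp15 held in 4 to 7 of the 12, with adjusted p up to 0.0818 without 1 array.

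At day 6 the rises were in Gar1, Nhp2, Npm1, Ncl, Fbl and Nop9, and Gar1, Nhp2 and Fbl had also risen at day 1. The share of all genes that rose on both days was not computed, so this overlap has no background to be read against. In replicate order, the 5 ligated arrays gave 10.81, 10.39, 10.06, 10.05 and 9.98 for Gar1, and the 6 sham arrays a lowest, median and highest value of 9.32, 9.51 and 9.69. All ligated arrays lay above all sham arrays, and the difference was 0.75 ± 0.15 (1.68-fold, adjusted p = 0.0111). Nhp2 had 11.82, 12.43, 11.45, 11.50 and 11.44 after ligation and 10.92, 11.07 and 11.18 as the lowest, median and highest of the sham arrays. These did not overlap either, with 0.65 ± 0.17 (1.57-fold, adjusted p = 0.0275). Fbl had ligated levels of 11.64, 11.89, 11.15, 11.11 and 11.23 against a sham range of 10.72 to 11.11. It was near the threshold, at 0.51 ± 0.16 (1.43-fold, adjusted p = 0.0495). The 2 brightest ligated arrays held the highest ligated values of Fbl, Gar1, Nhp2 and Npm1, though not of Ncl or Nop9. The Fbl call held in 2 of 11 refits that left out 1 array and that of Nhp2 in 8, with adjusted p up to 0.1 and 0.0602.

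Ncl and Npm1 passed at day 6. Ncl was at 10.96, 10.79, 10.87, 10.83 and 10.99 on the ligated arrays and at 10.17, 10.4 and 10.55 as the lowest, median and highest of the sham arrays. The ligated arrays were tightly grouped above the sham arrays, and the difference was 0.53 ± 0.11 (1.44-fold, adjusted p = 0.0102). Npm1 had 12.27, 12.44, 12, 11.98 and 12.07 against 11.25, 11.54 and 11.88, again without overlap, and rose by 0.60 ± 0.14 (1.51-fold, adjusted p = 0.0182). Nop9, an RNA-binding factor of the small subunit, had 6.71, 6.61, 6.66, 6.41 and 6.44 after ligation and a sham range of 6.06 to 6.34, and rose by 0.38 ± 0.10 (adjusted p = 0.0342), a call that held in 4 of 11 refits without 1 array. Every ligated array was above every sham array for 5 of the 40 members, against 4.68% of all genes.

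The RNA polymerase I subunits gave no call at day 6. Polr1a was at 7.27, 7.73, 8.0, 8.25 and 7.95 on the ligated arrays and from 7.90 to 8.55 on the sham arrays, which overlapped, with -0.40 ± 0.18 (adjusted p = 0.164). Polr1d was at 11.13, 11.33, 10.51, 10.45 and 10.77 after ligation and from 10.15 to 10.82 after sham surgery, with 0.35 ± 0.18 (adjusted p = 0.215). Polr1f was at 10.81, 10.39, 9.56, 9.71 and 10.04 against 9.67 to 10.30, with 0.18 ± 0.21 (adjusted p = 0.596). For both, ligated arrays 1 and 2 were the highest. The other tested subunits had differences close to 0 and groups that overlapped. Polr1b had 10.18, 9.52, 9.27, 9.53 and 9.39 against 9.43 to 9.84 (0.0035 ± 0.16, adjusted p = 0.993), with ligated array 1 above all the others. Polr1c had 11.47, 11.42, 11.85, 11.68 and 11.45 against 11.52 to 11.67 (-0.01 ± 0.11, adjusted p = 0.949). Polr1h had 9.66, 9.93, 9.88, 9.85 and 9.57 against 9.69 to 9.88 (0.01 ± 0.11, adjusted p = 0.95).

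Among the 60S factors of day 6, Pes1 came closest to the threshold, with ligated levels of 6.79, 6.78, 6.82, 6.73 and 6.32, a sham range of 5.87 to 6.55, and a difference of 0.50 ± 0.15 (adjusted p = 0.0502). Nop58, which had risen at day 1, had 11.10, 10.25, 9.30, 9.45 and 9.92 at day 6 against 9.35 to 10.04 in the sham group, a spread that covered the difference of 0.21 ± 0.28 (adjusted p = 0.649). Utp15 and Polr1e were not tested at day 6, each having been detected on 3 arrays or fewer. The highest value that did not pass was that of Utp18, a processome protein, at 0.69 ± 0.25 (adjusted p = 0.0929), and the other members that did not pass lay between -0.40 and 0.50.

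The shift of the whole set at day 6 leaned on 1 array. The median over members of the level minus the sham mean was 0.62, 0.17, 0.13, 0.09 and -0.03 on ligated arrays 1 to 5, against -0.09 to 0.04 on the sham arrays. Without ligated array 1 the median fold change of the set was 0.07, and without arrays 1 and 2 together, an alternative chosen after seeing the data, it was also 0.07, with Gar1, Nhp2 and Ncl past the threshold. After scaling to the array median in place of quantile normalisation no member passed at day 6, where Gar1 had 0.68 (adjusted p = 0.324). Without sham array 4, 5 or 6 the count of rises was 3.

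**Figure D4:**
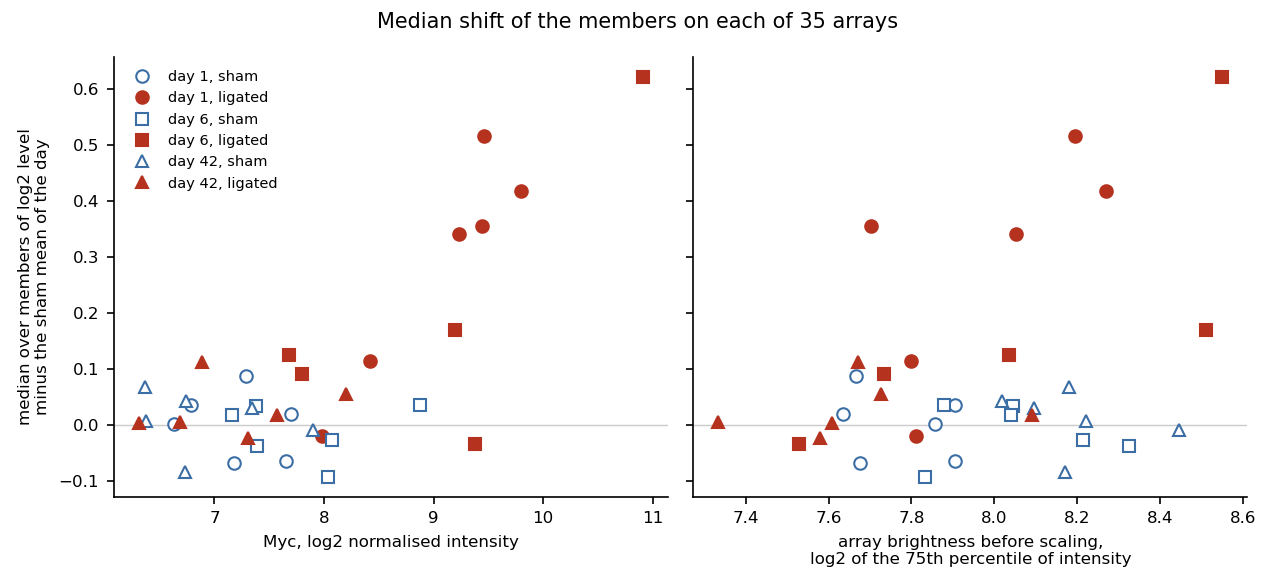
Median over members of the level minus the sham mean of the day, on each of the 35 arrays, against the level of Myc (left) and against array brightness before scaling (right). Ligated arrays are filled red, sham arrays open blue, and the marker shape gives the day. Ligated array 1 of day 6 is highest on all 3 measures, and 4 ligated arrays of day 1 lie at 0.34 or above.

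At day 42 the median fold changes were 0.08 for the polymerase subunits, 0.14 for box C/D, 0.28 for box H/ACA and -0.23 for 60S assembly, and after scaling to the array median all of these were below 0, as was the median of all genes, at -0.47. Polr1f alone rose, by 0.27 ± 0.09 (1.2-fold, adjusted p = 0.0492), from 9.89, 9.98 and 10.09 as the lowest, median and highest sham level to 10.06, 10.28 and 10.38, but its value after median scaling was -0.24 (adjusted p = 0.169), which is 0.23 above the median of all genes there. It lost the call in 10 of 12 refits that left out 1 array, all but those without ligated array 1 or 6, with adjusted p from 0.0618 to 0.0922. Ddx21 fell by 0.53 (SE 0.14; 1.44-fold lower; adjusted p = 0.0265). Its levels were 5.91, 6.34 and 6.61 as the lowest, median and highest of the ligated arrays and 6.48, 6.83 and 7.16 of the sham arrays, with 4 of 6 ligated arrays below all sham arrays. Without sham array 1 or 2 of day 42 its adjusted p was 0.0531 and 0.0578.

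Of the 11 factors of 60S assembly, 10 were below 0 at day 42, as were 3198 of all 6229 genes. Their median was -0.23, although none passed. The lowest were Nop53 at -0.41 ± 0.14 (adjusted p = 0.0605), Wdr12 at -0.39 ± 0.13 (adjusted p = 0.0586) and Rrp8, a methyltransferase of the large subunit RNA, at -0.37 ± 0.12 (adjusted p = 0.0584). Rrp8 and Wdr12 were below the sham median on all 6 ligated arrays. Ebna1bp2 was the exception, at 0.21 ± 0.13. The 3 box H/ACA members were above 0, with Nhp2 at 0.28 ± 0.13 (adjusted p = 0.145), Gar1 at 0.16 ± 0.12 and Nolc1 at 0.45 ± 0.26, though all were below 0 after median scaling. Nop14, a small subunit factor, had the highest value at 0.57 ± 0.22 (adjusted p = 0.0853). Utp15 and Utp18 were not tested at day 42. Polr1a was at -0.03 ± 0.17 (adjusted p = 0.921), with ligated levels of 7.34 to 8.05 inside the sham range of 7.02 to 8.13. Polr1d had ligated levels of 10.02, 10.25 and 10.61 as lowest, median and highest and sham levels of 10.26, 10.47 and 10.56, which overlapped, with -0.21 ± 0.11 (adjusted p = 0.195). The other subunits did not pass, and their groups overlapped. Polr1b lay between 9.25 and 9.89 after ligation and between 9.10 and 9.71 after sham surgery (0.10 ± 0.13, adjusted p = 0.609), and Polr1c between 11.36 and 11.61 and between 10.9 and 11.55 (0.18 ± 0.11, adjusted p = 0.264). Polr1h lay between 9.09 and 9.40 after ligation and between 9.04 and 9.40 after sham surgery (0.08 ± 0.10, adjusted p = 0.588). Polr1e, detected on 2 ligated and 4 sham arrays, could be tested on this day alone and had -0.11 ± 0.19 (adjusted p = 0.712). No member had groups without overlap at day 42, where 3.23% of all genes had all ligated arrays above and 2.86% below.

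The change of the ligation effect between days was tested in 1 fit of all 35 arrays, on 41 members. Between day 1 and day 6 no member passed by limma, 4 had an unadjusted p under 0.05, and 0.284% of all genes were higher and 0.389% lower at the later day. Between day 6 and day 42 the effect dropped for 2 members, against 3.65% of all genes, and increased for none, against 3.35%. Pes1 went from 0.50 to -0.25, a difference of -0.75 ± 0.18 (adjusted p = 0.011), and was detected on 1 of 6 ligated arrays at day 42. Its ligated levels at day 42 had a lowest, median and highest value of 5.72, 5.87 and 6.44, against 6.01, 6.21 and 6.34 in the sham group. Npm1 went from 0.60 to -0.23, a difference of -0.83 ± 0.26 (adjusted p = 0.0465). At day 42 its ligated and sham levels overlapped, with medians of 10.81 and 10.95.

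Between day 1 and day 42 the effect dropped for 5 members, against 4.31% of all genes, and increased for 1, against 4.5%. Polr1d changed from 0.52 to -0.21 (difference -0.73 ± 0.20, adjusted p = 0.0265) and Rrp8 from 0.37 to -0.37 (difference -0.74 ± 0.22, adjusted p = 0.0379). For Rrp8 the ligated and sham medians were 7.43 and 7.07 at day 1 and 6.86 and 7.26 at day 42. Bop1 and Wdr12, which share a complex, differed by -0.68 ± 0.22 and -0.69 ± 0.22, and Rrp15 by -0.58 ± 0.18 (adjusted p = 0.0432, 0.0485 and 0.0413). Pes1, the other member of that complex, differed by -0.09 ± 0.17 and did not pass (adjusted p = 0.755). The ligated and sham medians of Wdr12 were 7.47 and 7.06 at day 1 and 6.89 and 7.23 at day 42, and those of Rrp15 10.17 and 9.86 at day 1 and 10.22 and 10.46 at day 42. The ligated median was above the sham median at day 1 and below it at day 42 for Rrp8, Wdr12 and Rrp15. The same held for Polr1d, with 10.67 and 10.08 at day 1 and 10.25 and 10.47 at day 42. None of these genes passed at day 42, and Rrp8 and Wdr12 did not pass at day 1 either. For Polr1a the effect increased, from -0.76 to -0.03, a difference of 0.73 ± 0.23 (adjusted p = 0.0459) that was -0.042 after median scaling. That scaling moved the median difference of all genes from 0.007 to -0.66, and Polr1a lay 0.62 above all genes under it and 0.72 above as reported. The call for Pes1 held in all 35 refits that left out 1 array and that for Polr1d in 32, while those for Npm1, Bop1, Polr1a, Rrp15, Rrp8 and Wdr12 held in 10 to 23. Across the 39 members tested on all days, 18 were above 0 on every day, 3 below 0 on every day (Ddx21, Nop53 and Polr1a), and 28 had their lowest value at day 42. These counts over the 3 days were not made for all genes, of which 46.1%, 44.8% and 48.7% were above 0 at days 1, 6 and 42. They also depend on the scaling: at day 42, 21 of 40 members were above 0 as reported and 1 after median scaling.

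Other genes of the pathway are read here against the same shares of all genes as the members (12.9% rose and 16.2% fell at day 1). Of 18 further 40S factors tested, 6 rose and none fell, with a median of 0.22. They included Mphosph10, a U3 particle protein, at 0.57 ± 0.12 (adjusted p = 0.00409), whose groups did not overlap. Of 25 further 60S factors, 6 rose and 1 fell, with a median of 0.08. Mrto4, a placeholder for a stalk protein of the large subunit, rose by 0.92 ± 0.19 (1.89-fold, adjusted p = 0.0046), and Pak1ip1 by 0.82 ± 0.20 (1.77-fold, adjusted p = 0.00934). Of the 4 genes tested for initiation and termination by RNA polymerase I, Taf1d, a subunit of the selectivity factor, rose by 0.56 ± 0.19 (adjusted p = 0.041), while Ubtf, the main architectural factor, had -0.05 ± 0.15 (adjusted p = 0.814). Rrn3 and Taf1a were detected on no array. In the RNA exosome 1 of 8 rose and 1 fell, near the shares of all genes. The one that rose, Exosc2, was detected on all 6 ligated arrays and no sham array, so it passed the detection filter through the ligated group alone. Its sham level has only an upper bound, and the ligated mean was at least 1.15-fold higher.

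Myc, a transcription factor known to drive ribosome production, rose by 1.85 ± 0.29 at day 1 (3.6-fold, adjusted p = 0.00122). Its lowest, median and highest levels were 7.98, 9.34 and 9.80 after ligation and 6.63, 7.23 and 7.70 after sham surgery, without overlap. Its relative Mycn fell by 0.62 (SE 0.17; adjusted p = 0.0153). The ligated arrays 2 and 5 of day 1 were lowest in Myc, at 7.98 and 8.42, and also in the median of the members. At day 6 ligated array 5 had the second highest Myc level of its group and the lowest median of the members. A link between the level of Myc and the members was not tested. At day 6 Myc was at 10.91, 9.20, 7.68, 7.80 and 9.38 on the ligated arrays and from 7.16 to 8.87 on the sham arrays, and did not pass (1.17 ± 0.51, adjusted p = 0.147). At day 42 it had 0.25 ± 0.32 (adjusted p = 0.611).

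At day 6, Mrto4, Ppan and Mak16 were the 60S factors outside the set that rose, of 25 tested, and Nob1, the nuclease that makes the end of the small subunit RNA, the 40S factor, of 19, where 5.95% of all genes rose. The 40S count is near that share. Mrto4 rose by 0.68 ± 0.12 (adjusted p = 0.0067) and Nob1 by 0.48 ± 0.11 (adjusted p = 0.0185). Tcof1, a nucleolar partner of RNA polymerase I, fell by 0.54 (SE 0.15; adjusted p = 0.0347) and was detected on 2 of 5 ligated arrays. At day 42, 6.84% of all genes rose and 7.9% fell. Of 18 further 40S factors tested then, Riok1 rose and Tbl3 fell, near those shares, with a median of 0.07. The largest single change in these lists was in Riok1, a kinase of late 40S maturation. Its lowest, median and highest levels were 8.41, 8.99 and 9.19 after ligation and 7.64, 7.81 and 8.03 after sham surgery, a rise of 1.10 ± 0.13 (2.15-fold, adjusted p = 0.000314) without overlap. Riok1 had risen by 0.49 ± 0.16 at day 1 (adjusted p = 0.0382) and had -0.43 ± 0.28 at day 6 (adjusted p = 0.34). Of 25 further 60S factors, Mrto4, Senp3, Mak16 and Pak1ip1 rose at day 42. Nmd3, the export adaptor of the large subunit, fell by 0.73 (SE 0.12; adjusted p = 0.0033) and Rpf1 by 0.59 (SE 0.10; adjusted p = 0.00374), and both were lower on every ligated array than on any sham array.

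Some markers of other cells rose after ligation at days 1 and 6, where 12.9% and 5.95% of all genes rose. At day 1, 4 of 10 macrophage and monocyte markers tested rose (Cd14, Lgals3, Tyrobp and Aif1), and their summed intensity was 6270 to 17500 on ligated and 3690 to 8360 on sham arrays. Of 5 dividing cell markers, Mcm2 and Mcm6 rose, with sums of 2730 to 7060 and 2450 to 2830, and Ccnb1 was detected on no array. At day 6, 8 of 9 macrophage markers rose, with sums of 7490 to 39600 against 4860 to 6550, and 4 of 7 dividing cell markers, with 3350 to 10300 against 2830 to 3740. Of 8 fibroblast markers 1 rose at day 1 (Postn), near the share of all genes. Tagln rose among 2 markers of smooth muscle and pericytes. At day 6 Col1a1 and Postn rose among the 8 fibroblast markers, and Tagln again. The fibroblast sums were 44400 to 76600 on ligated and 43900 to 54000 on sham arrays of day 1, and 51600 to 100000 and 44500 to 63100 at day 6. Of 4 endothelial markers Vwf rose at day 1, while the median of the 4 was -0.11. At day 42 none of 8 macrophage markers rose, with sums of 1980 to 5650 and 2740 to 5090. Of 8 fibroblast markers Col3a1 fell, of 4 endothelial markers Tek fell, and of 6 dividing cell markers Mcm5 rose. On that day 6.84% of all genes rose and 7.9% fell. Of the T and B cell markers, 2 (Cd3g and Cd8a) were tested on each day and neither passed, while Cd3e and Cd4 were detected on no array at days 1 and 6. S100a9, Cxcr2 and Mpo of neutrophils were detected on no array of any day. S100a8, the other neutrophil marker, was tested on each day and did not pass, with 0.74 at day 1 and 0.42 at day 6, where the summed neutrophil markers were 244 to 1920 on ligated and 227 to 536 on sham arrays. The part of such cells, of array brightness and of position in the changes of the ribosome assembly genes was not tested.

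**Figure D5:**
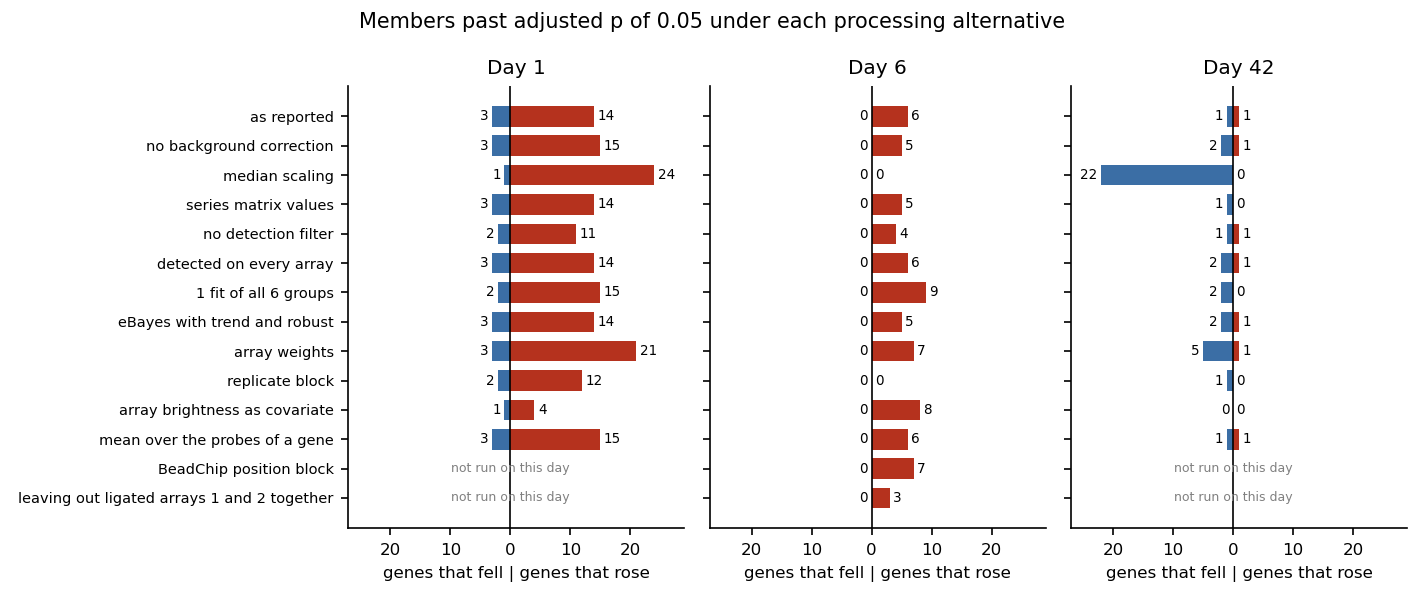
Number of members past an adjusted p of 0.05 for days 1, 6 and 42 under the reported processing and each alternative, with rises to the right in red and falls to the left in blue. At day 1 the rises run from 4 with array brightness as a covariate to 24 after median scaling, and at day 42 median scaling gives 22 falls, where it also moved the median of all genes to -0.47.

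One gene had 2 probes. For Utp14a, a processome component, the brighter probe stands for the gene and had 0.20 ± 0.10 at day 1 (adjusted p = 0.126). The other probe had 0.67 ± 0.21 there (adjusted p = 0.0265), so that the call for this gene depends on the probe.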

How the data were processed

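Left ventricle RNA of 35 samples was measured on Illumina BeadChips. Per the file headers, the deposited tables hold for each array the scanner intensity per probe, a detection p-value and, as other values, the number of beads. The authors' normalised linear intensity (series matrix) served as an alternative. BeadStudio 3.3 and GenomeStudio were used, per the submitters' processing notes, and neither their steps nor the normalisation are given in the sources used here. The day 6 table also has 4 columns of 1 array that fits no label, which were left out. Of 22523 probes, 13793 have a symbol in the probe annotation of the series.

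Intensities were background-corrected with normexp (offset 16, with the negative controls estimated from detection p-values). Quantile normalisation within each day and log2 followed. Probes with a detection p under 0.01 on at least 5 arrays of the day were tested (8236, 8492 and 8351 at days 1, 6 and 42). Ligated and sham arrays were compared with limma 3.58.1 (lmFit and eBayes, R 4.3.3), with Benjamini-Hochberg adjustment over every probe tested, at 0.05. The probe with the highest mean stands for a gene. Changes of the effect between days came from 1 fit of 6 group means on 35 arrays. A gene detected in 1 group alone has only a bound: the fold is taken against the higher of its own signal and the lowest detected signal on each array. It is a lower limit only where the gene was detected on every array of the other group. The limma fit was tested on simulated data, with 100 probes changed by each of 2 amounts. The data were random normal values with the means and spread of probes already background-corrected, normalised and filtered. Background correction, normalisation and brightness differences between arrays were therefore not covered. Fewer probes were changed than were called in the measured data, so the shares below need not hold there. Log2 changes of 0.5 were recovered in 40%, 26% and 38% of cases at days 1, 6 and 42. Changes of 1 were recovered in 92%, 75% and 89%. False calls made up 8.33%, 4.72% and 5.22% of all calls.

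Members were grouped by role. Levels per array are given for those that passed on a day (up to 6 largest rises and 6 largest falls) or between days and for every Polr1 gene, and other members by counts and ranges. Of the other lists, up to 4 genes with the smallest p are given with values, and Myc. The members and lists were chosen with earlier results of these data known. Bead arrays have no count depth, and precision is limited by how many arrays there are. The labels number the replicates but do not say whether tissue was pooled, so p-values measure the spread between these samples. Alternatives covered background correction, scaling, filters, moderation, array weights, the replicate block, brightness, position, probe choice and leaving out each array.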

Additional observations from a re-analysis of the deposited data

Results flagged for a closer look

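The members with a call on a day and every Polr1 gene tested on it were examined for outlying arrays. In 4 of 80 groups of arrays, 1 array stood apart from the rest of its group, where chance gives about 1 in 20. They were Ebna1bp2 on sham array 5 of day 1, at 8.80 with the next array at 8.47, Utp11 on sham array 4 of day 1, at 9.26 with the next at 9.05, Polr1b on ligated array 1 of day 6, at 10.18 with the next at 9.53, and Polr1d on sham array 5 of day 42, at 10.26 with the next at 10.45.

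The ligation effect differed between days, by the limma test of the difference itself (adjusted p under 0.05), for 8 of the 41 members tested. That count pools the pairs of days, and the share of all genes that passed for any pair was not computed. From day 6 to day 42, where 3.65% of all genes were lower and 3.35% higher, the differences were -0.83 for Npm1 and -0.75 for Pes1. From day 1 to day 42, where 4.31% of all genes were lower and 4.5% higher, they were -0.68 for Bop1, -0.73 for Polr1d, -0.58 for Rrp15, -0.74 for Rrp8, -0.69 for Wdr12 and 0.73 for Polr1a. The last of these was -0.042 after median scaling, where the median of all genes was -0.66, so that Polr1a lay 0.62 above all genes (0.72 as reported).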

How the results depend on the processing

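Median scaling within the day moved the median fold change of all genes from -0.03 to 0.20 at day 1 and from -0.01 to -0.47 at day 42. The set's median moved with it, to 0.56 and -0.44, while its distance from the median of all genes stayed at 0.36 (0.33 as reported) at day 1, 0.24 (0.24) at day 6 and 0.03 (0.02) at day 42. The members then gave 24 rises and 1 fall at day 1, 0 rises and 0 falls at day 6, and 0 rises and 22 falls at day 42. The calls over all genes were then 1295 and 264 at day 1 (83.1% of calls higher, 44.3% as reported), 47 and 66 at day 6, and 56 and 3515 at day 42 (1.57% higher, 46.4% as reported). At day 42 the sign changed for 20 of 40 members. Among these, 6 passed in at least 1 of the fits and so count as reversed: Fbl (-0.50), Polr1b (-0.42), Polr1f (-0.24), Polr1h (-0.44), Utp23 (-0.51) and Utp4 (-0.39). From day 1 to day 42 the median difference of all genes moved from 0.007 to -0.66 and the sign changed for 8 of 41 members, of which 6 passed in at least 1 of the fits: Imp3 (-0.71), Ncl (-0.72), Polr1a (-0.042), Polr1c (-0.63), Polr1h (-0.72) and Utp14a (-0.78), with 36 members lower and 0 higher. Relative to the median of all genes under this scaling, Polr1a lay at 0.62 (0.72 as reported) and the other 11 values between -0.12 and 0.23.

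With array brightness as a covariate the counts were 4 rises and 1 fall at day 1 and 0 and 0 at day 42, where 2 of all genes passed, and 411 rises and 496 falls over all genes at day 1. Array weights gave 21 rises at day 1, 5 falls at day 42, a median of 0.10 at day 6, and between days 1 higher and 6 lower (days 1 to 6), 1 lower (6 to 42) and 18 lower (1 to 42). Over all genes they gave 322 higher and 355 lower from day 1 to day 6. At day 42 the rises were 0 with series matrix values and with 1 fit of all 6 groups, and the falls 2 without background correction, with detection on every array, with 1 fit of all 6 groups and with trended robust moderation. From day 6 to 42, series matrix values, no detection filter and detection on every array gave 1 lower. From day 1 to 42, series matrix values gave 3 lower and 0 higher, and no detection filter 1 lower and 0 higher. Without ligated arrays 1 and 2 of day 6, chosen after seeing the data, 3 members rose and the median was 0.07. The cause of these changes was not tested.

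The labels share replicate numbers between ligated and sham groups, but the deviations of same-numbered arrays correlated between -0.27 and 0.34, so the numbers were not taken as pairs. With the replicate block, the counts were 12 rises and 2 falls at day 1, 0 and 0 at day 6, 0 rises and 1 fall at day 42, 1 lower from day 6 to 42, and 1 higher and 2 lower from day 1 to 42. Over all genes at day 6 the block gave 155 rises and 122 falls.

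Leaving out 1 array at a time gave 8 to 19 rises and 1 to 3 falls at day 1, 3 to 7 rises and 0 falls at day 6, and 0 to 2 rises and 0 to 3 falls at day 42. Between days it gave 0 to 1 higher and 0 lower (1 to 6), 1 to 3 lower (6 to 42), and 0 to 1 higher and 0 to 12 lower (1 to 42). Of 8022 single-gene values, 251 changed sign without passing in either fit.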
